A study of Sus scrofa with 3 samples.

Results

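The miR-99/100 and miR-125 families of the pig were examined in growing psoas major muscle. Their members were taken as every porcine mature name of miR-99, miR-100 or miR-125, whatever its letter or arm, which gave 5 of the 276 porcine mature names in the libraries: ssc-miR-99a, ssc-miR-99b, ssc-miR-100, ssc-miR-125a and ssc-miR-125b. All 5 were listed in each of the 3 libraries, which differ in the age of the pigs: 63 d, 98 d and 161 d. The animals were castrated male hybrids of Landrace, Large White and Duroc, labelled as fattening pigs. An age is represented by 1 library made from the mixed total RNA of 6 animals, which leaves differences among animals unmeasured. No test between ages is therefore possible, and every interval given here is an exact 95% interval that covers counting error only.

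Both families are old and widely conserved. miR-125 is the vertebrate counterpart of lin-4, the founding miRNA of worm development, and miR-99/100 miRNAs are known to act on MTOR, a kinase that drives growth. miR-125b is known in muscle for acting on IGF2, a growth factor of differentiating myoblasts, and in stem cells for acting, with let-7, on LIN28. In mammals the genes of both families lie together with let-7 genes in small clusters, and the clusters arose by duplication of 1 ancestral unit.

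The sequences are shown because they define the families and show how little separates their members. Bases 2 to 8 from the 5′ end, the seed that selects target mRNAs, are in capitals and all are written as DNA, as in the deposited files.
ssc-miR-99a: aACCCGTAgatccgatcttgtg
ssc-miR-100: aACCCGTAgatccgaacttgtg
ssc-miR-99b: cACCCGTAgaaccgaccttgcg
ssc-miR-125a: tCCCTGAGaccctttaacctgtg
ssc-miR-125b: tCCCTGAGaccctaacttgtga

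Among the 276 porcine mature names, 3 carried the first seed and 2 the second, and these were the 5 members themselves. ssc-miR-99a and ssc-miR-100 differed at 1 base of 22, T16A (base of ssc-miR-99a, position from the 5′ end, base of ssc-miR-100). ssc-miR-99b differed from ssc-miR-99a at 4 bases, A1C, T11A, T16C and T21C, all outside the seed. ssc-miR-125a and ssc-miR-125b were identical over their first 13 bases. The lengths of 22 and 23 nt are so close that reads of different members were compared without scaling by length.

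The 5 hairpins lie in 3 places, each with a let-7 gene. The deposited files number the genome sequences without naming a build, and give ssc-mir-99a at positions 191558609 to 191558689 of the plus strand, 641 bases before ssc-let-7c. On another genome sequence ssc-mir-125b-1 lies at 54334906 to 54334993 and ssc-mir-100 at 54383379 to 54383461 of the minus strand, with ssc-let-7a-1 between them. On yet another, ssc-mir-99b lies at 51858217 to 51858286 and ssc-mir-125a at 51858848 to 51858933 of the plus strand, with ssc-let-7e between them. The RefSeq gene list of the Sscrofa11.1 assembly places the same genes as direct neighbours, MIR99A with MIRLET7C on chromosome 13, MIR125B-1, MIRLET7A-1 and MIR100 on chromosome 9, and MIR99B, MIRLET7E and MIR125A on chromosome 6. They are called here the miR-99a, miR-100 and miR-99b clusters. The spacing differs: 48385 bases separate ssc-mir-125b-1 from ssc-mir-100, and 561 bases separate ssc-mir-99b from ssc-mir-125a. Every member is the 5′ arm of its hairpin. The files also list another miR-125b hairpin, mir-125b-2, without a position on the pig genome, and in other mammals this hairpin lies with miR-99a and let-7c. Its 5′ arm is the same as that of ssc-mir-125b-1, so the reads of ssc-miR-125b cannot be assigned to either hairpin, and of the 3′ arm reads of both hairpins mir-125b-2 gave 92.3, 91.6 and 89.6% at 63, 98 and 161 d. Values of ssc-miR-125b therefore cannot be taken as values of the miR-100 cluster alone.

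Reads listed under miRNA names numbered 1464699, 2418187 and 2242716 at 63, 98 and 161 d, and porcine mature names took 90.1, 91.1 and 91.2% of them. Other sequenced reads are not in these totals, and a share of the reads of a library means a share of these totals. Levels are given as reads per 1000000 reads of these totals (RPM). A floor of 3 reads, a fixed setting and not 1 of the exact intervals, corresponds to 2.05, 1.24 and 1.34 RPM. The 3 skeletal muscle markers were all present, and ssc-miR-133a-3p alone took 43.3, 36.2 and 44.0% of the reads, lowest at 98 d. The other 2 were highest at 98 d, ssc-miR-1 at 12377, 31642 and 21259 RPM and ssc-miR-206 at 1897, 2717 and 1321 RPM. The 98 d library stood apart in several marker lists. ssc-miR-122, the liver miRNA, was at 7.51, 123 and 5.35 RPM at 63, 98 and 161 d. The summed level of the 2 red blood cell markers was 808, 1491 and 1069, that of the 2 endothelial markers 5833, 9769 and 6759, and that of the 2 slow fibre markers 1568, 2821 and 1817. Of the 3 myeloid markers 2 were listed and summed to 632, 1052 and 698, and of the 2 epithelial markers 1 was listed, at 164, 304 and 245. The 2 smooth muscle markers summed to 9380, 11823 and 27194, most of it ssc-miR-143-3p (8916, 11451 and 26506). The other, ssc-miR-145-5p, was at 464, 372 and 688 and so was lower at 98 d than at 63 d. In bulk muscle, fewer cells of a type and less of a miRNA per cell cannot be told apart.

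ssc-miR-125a, ssc-miR-125b, ssc-miR-99b, ssc-miR-100 and ssc-miR-99a were all moderately abundant, and the miR-125 members stood above the miR-99/100 members in each library. ssc-miR-125a gave 3094, 5164 and 4500 reads at 63, 98 and 161 d, which is 2112, 2135 and 2006 RPM. ssc-miR-125b gave 2760, 6245 and 4424 reads, or 1884, 2583 and 1973 RPM. The order of these 2 members therefore differed between 63 and 98 d, and at 161 d their intervals overlapped (1948 to 2066 for ssc-miR-125a and 1915 to 2032 for ssc-miR-125b).

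ssc-miR-99b gave 1057, 1693 and 1376 reads at 63, 98 and 161 d, or 722, 700.1 and 614 RPM. ssc-miR-100 gave 782, 1881 and 1653.5 reads, or 534, 778 and 737 RPM. Below ssc-miR-99b at 63 d, ssc-miR-100 stood above it at both later ages, with intervals that did not overlap at any age (743 to 814 against 667 to 734 at 98 d). ssc-miR-99a was the lowest member throughout, with 255, 867 and 589.5 reads, or 174, 359 and 263 RPM. The values that are not whole at 161 d come from reads divided between ssc-miR-99a and ssc-miR-100. Among porcine mature names in a library, the ranks ran from 34 (ssc-miR-125a at 63 d and ssc-miR-125b at 98 d) to 115 (ssc-miR-99a at 63 d, of 263 names).

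**Figure D1:**
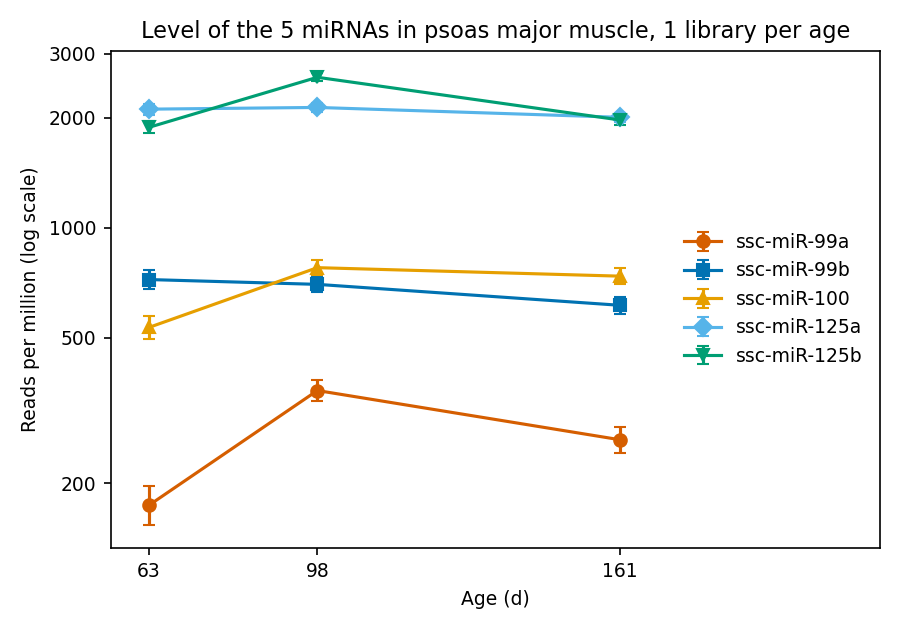
RPM (log scale) of the 5 miRNAs against age in days, with exact 95% Poisson intervals from the counts of 1 library per age. On this scale ssc-miR-99a, ssc-miR-100 and ssc-miR-125b are highest at 98 d. With TMM, with DESeq2's size factors or without ssc-miR-133a-3p in the total, ssc-miR-100 is highest at 161 d. In the last of these settings it is at 941, 1219 and 1316 at 63, 98 and 161 d. On the scale shown ssc-miR-125a stays between 2006 and 2135 and ssc-miR-99b between 614 and 722.

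Together the 5 members took 0.543, 0.655 and 0.559% of the reads at 63, 98 and 161 d, with intervals of 0.531 to 0.555, 0.645 to 0.666 and 0.550 to 0.569%. The share was thus highest at 98 d, but with TMM the summed level of the 5 members was 5365, 6051 and 6127, and with DESeq2's size factors 5433, 5814 and 6297, highest at 161 d. The 2 members of the miR-99b cluster took 0.283, 0.284 and 0.262% of the reads at the 3 ages. ssc-miR-100 and ssc-miR-125b together took 0.242, 0.336 and 0.271%.

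The comparison of 63 and 98 d asks which members differ over the first part of the growing period. ssc-miR-99a was 2.06-fold higher at 98 d (1.79 to 2.38), and it was the 1 member of 5 past a 1.5-fold limit. Of 243 porcine names with at least 10 reads in either library, 34.2% were higher at 98 d by more than 1.5-fold and 12.8% were lower, so 1 of 5 is no more than the background. The names past the limit were 83 higher and 31 lower, against 62 and 44 with DESeq2's size factors. Past 2-fold higher were 13.6% of the names, and ssc-miR-99a was among them, with 28 names of larger fold. It was not past 2-fold with TMM (1.92), without ssc-miR-133a-3p in the total (1.83), with DESeq2's size factors or on copies of the representative read. ssc-miR-100 was 1.46-fold higher (1.34 to 1.59) and ssc-miR-125b 1.37-fold higher (1.31 to 1.43). ssc-miR-125a stood at 1.01-fold (0.967 to 1.06) and ssc-miR-99b at 0.970-fold (0.898 to 1.05), and both intervals hold 1. Only for ssc-miR-125a did a scaling turn the direction, to 0.944-fold with edgeR's trimmed mean scaling (TMM) and 0.896-fold with DESeq2's size factors.

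The median of all porcine names also differed between these libraries. The median log2 fold of the 242 porcine names listed in both was 0.29 from 63 to 98 d, and -0.31 over 244 names from 98 to 161 d, against 0.00 over 237 names from 63 to 161 d. Relative to this median, ssc-miR-99a was higher at 98 d by 0.75 on the log2 scale, ssc-miR-100 by 0.25 and ssc-miR-125b by 0.17. ssc-miR-125a stood at -0.27 and ssc-miR-99b at -0.33 on the same relative scale. The members thus lay on both sides of the median, 3 above and 2 below, although on copies of the representative read alone ssc-miR-100 stood at -0.07. The red blood cell, endothelial and slow fibre marker sums were higher at 98 d by 1.85-fold, 1.67-fold and 1.80-fold, and their part in the values of ssc-miR-99a, ssc-miR-100 and ssc-miR-125b was not tested.

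From 98 to 161 d all 5 members had a lower level on the scale of total reads, and none passed the 1.5-fold limit. On reads without mapping errors ssc-miR-99a did, at 0.654-fold. Over 244 porcine names, 5.74% were higher at 161 d by more than 1.5-fold and 28.7% lower. ssc-miR-99a was at 0.733-fold of its 98 d level (0.660 to 0.816), ssc-miR-125b at 0.764-fold (0.735 to 0.794) and ssc-miR-99b at 0.876-fold (0.816 to 0.942). ssc-miR-125a was at 0.940-fold (0.903 to 0.978) and ssc-miR-100 at 0.948-fold (0.887 to 1.01). Relative to the median of the porcine names, ssc-miR-100, ssc-miR-125a and ssc-miR-99b were higher by 0.23, 0.22 and 0.12 on the log2 scale, and ssc-miR-125b and ssc-miR-99a stood at -0.08 and -0.14. The direction of 3 members therefore depends on the scaling: with DESeq2's size factors ssc-miR-99b was at 1.11-fold, ssc-miR-100 at 1.20-fold and ssc-miR-125a at 1.19-fold. Among the porcine names past the limit, 14 were higher and 70 lower, against 30 and 39 with TMM and 36 and 36 with DESeq2's size factors.

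Over the whole period from 63 to 161 d, ssc-miR-99a was 1.51-fold higher (1.30 to 1.76), just past the limit, and it was the 1 member of 5 that passed. Over 238 porcine names, 20.6% were higher by more than 1.5-fold and 25.6% lower. ssc-miR-100 was 1.38-fold higher (1.27 to 1.51), just under the limit, and ssc-miR-125b was at 1.05-fold (0.998 to 1.10). ssc-miR-125a was at 0.950-fold (0.907 to 0.995), but at 1.05-fold with TMM and 1.07-fold with DESeq2's size factors, and ssc-miR-99b at 0.850-fold (0.784 to 0.922). The call of ssc-miR-99a depended on the reads counted, since on reads without mapping errors the fold was 1.36. With TMM scaling it was 1.67, and ssc-miR-100 also passed at 1.53. Among the porcine names past the limit, 49 were higher and 61 lower, against 65 and 50 with TMM. On copies of the representative read alone the fold of ssc-miR-99a was 1.04.

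**Figure D2:**
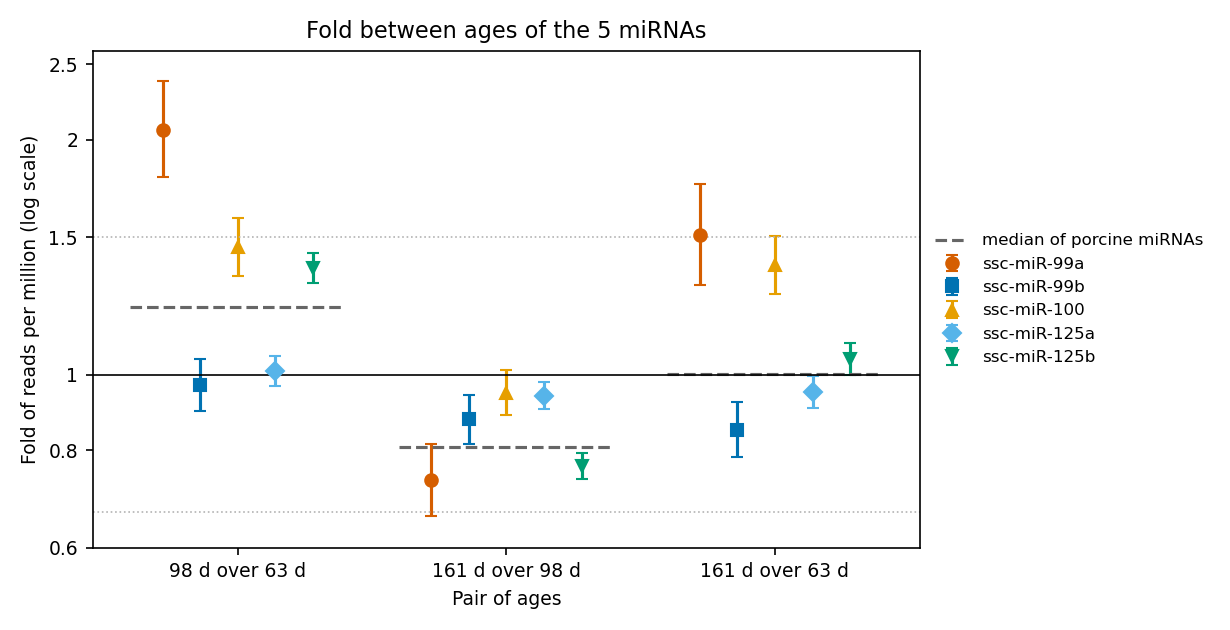
Fold of RPM between pairs of ages (log scale) for the 5 miRNAs, with exact 95% intervals, the dotted 1.5-fold limits and, as dashed lines, the median of all porcine miRNAs in each pair. At 98 d over 63 d, ssc-miR-99a, ssc-miR-100 and ssc-miR-125b lie above the median and ssc-miR-99b and ssc-miR-125a below it.

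Shares within a family do not depend on how a library is scaled. In the miR-99/100 family ssc-miR-99b held 50.5% (48.3 to 52.6), 38.1% (36.7 to 39.6) and 38.0% (36.4 to 39.6) of the reads at 63, 98 and 161 d. ssc-miR-100 held 37.3% (35.3 to 39.5), 42.4% (40.9 to 43.8) and 45.7% (44.1 to 47.3), and ssc-miR-99a 12.2% (10.8 to 13.7), 19.5% (18.4 to 20.7) and 16.3% (15.1 to 17.5). The leading member of the family was thus ssc-miR-99b at 63 d and ssc-miR-100 at 98 and 161 d, except that on copies of the representative read ssc-miR-99b, at 39.1%, stood above ssc-miR-100, at 37.7%, at 98 d. In the miR-125 family ssc-miR-125b held 47.1% (45.9 to 48.4), 54.7% (53.8 to 55.7) and 49.6% (48.5 to 50.6), and ssc-miR-125a the rest. The interval of ssc-miR-125b at 161 d holds equal shares of both members. Which member leads depends on the reads counted: on reads without mapping errors ssc-miR-125b held 40.6, 48.0 and 42.3%, below ssc-miR-125a at every age, and on copies of the representative read 57.8, 62.2 and 53.7%, above it at every age. On all 3 counts the share of ssc-miR-125b was highest at 98 d.

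**Figure D3:**
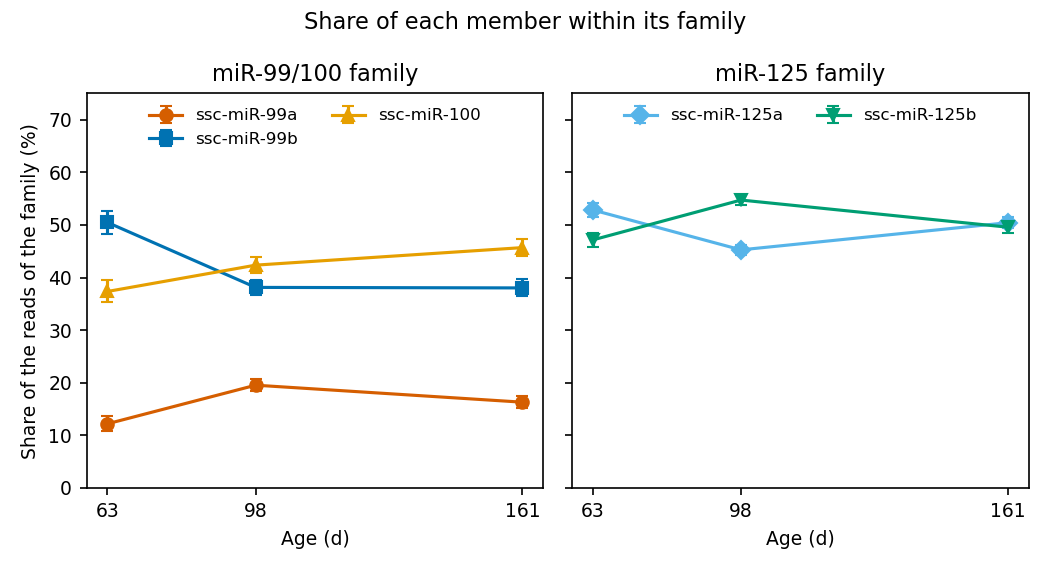
Share of the reads of its family (%) held by each member against age in days, with exact 95% binomial intervals. ssc-miR-99b goes from 50.5% at 63 d to 38.1% at 98 d, and ssc-miR-125b goes from 47.1 to 54.7%, an order of the miR-125 members that holds on all reads but not on reads without mapping errors.

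The ratio of 2 members in 1 library is likewise free of the scaling, and the ratio of that ratio between ages was computed for all 10 pairs of members. The pairs share members, so their ratios are not independent of each other. Members were ordered as their folds from 63 to 98 d, so every value of that comparison is above 1 by construction. The grouping of pairs by cluster was not planned, and its values restate the folds of the members and are no separate support for a cluster pattern. From 63 to 98 d, 8 of 10 intervals left out 1. The 6 pairs that set ssc-miR-99a, ssc-miR-100 or ssc-miR-125b over a member of the miR-99b cluster all had intervals above 1, with values from 1.36 (ssc-miR-125b over ssc-miR-125a, 1.27 to 1.44) to 2.12 (ssc-miR-99a over ssc-miR-99b, 1.81 to 2.50). The 2 intervals that held 1 were those of ssc-miR-125a over ssc-miR-99b, both of the miR-99b cluster, and of ssc-miR-100 over ssc-miR-125b, whose reads may come in part from outside the miR-100 cluster. ssc-miR-125a over ssc-miR-99b was 2.93 at 63 d and 3.05 at 98 d, a ratio of 1.04 (0.952 to 1.14), and ssc-miR-100 over ssc-miR-125b was 0.283 and 0.301, a ratio of 1.06 (0.966 to 1.17). On reads without mapping errors these 2 pairs, in the same order, stood at 1.08 (0.982 to 1.20) and 1.01 (0.904 to 1.13). On copies of the representative read ssc-miR-125a over ssc-miR-99b was 1.37 (1.19 to 1.58), where the read of ssc-miR-125a differs between the libraries, ssc-miR-100 over ssc-miR-125b was 0.862 (0.743 to 1.00), and ssc-miR-100 over ssc-miR-125a was 1.03 (0.886 to 1.21).

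From 98 to 161 d, 6 of 10 intervals left out 1 and the values ran from 0.774 to 1.24. On copies of the representative read 8 of 10 left out 1, with values down to 0.484 for ssc-miR-99a over ssc-miR-125a. On all reads the 6 pairs that set ssc-miR-99a, ssc-miR-100 or ssc-miR-125b over a member of the miR-99b cluster ran from 0.781 to 1.08. Of their intervals, 4 lay below 1 and 0 lay above 1. The ratio of ssc-miR-100 to ssc-miR-125b was 0.301 at 98 d and 0.374 at 161 d, 1.24-fold higher (1.15 to 1.34). In the miR-99b cluster the ratio of ssc-miR-125a to ssc-miR-99b was 3.05 and 3.27, with an interval of the change that holds 1 (0.987 to 1.16). On copies of the representative read this change was 1.24-fold (1.09 to 1.42), which leaves out 1. Over the whole period from 63 to 161 d, 9 of 10 intervals left out 1, against 8 on reads without mapping errors and 5 on copies of the representative read. The exception on all reads was ssc-miR-99a over ssc-miR-100, the pair that differs at 1 base, at 0.326 and 0.357, a ratio of 1.09 (0.920 to 1.30).

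**Figure D4:**
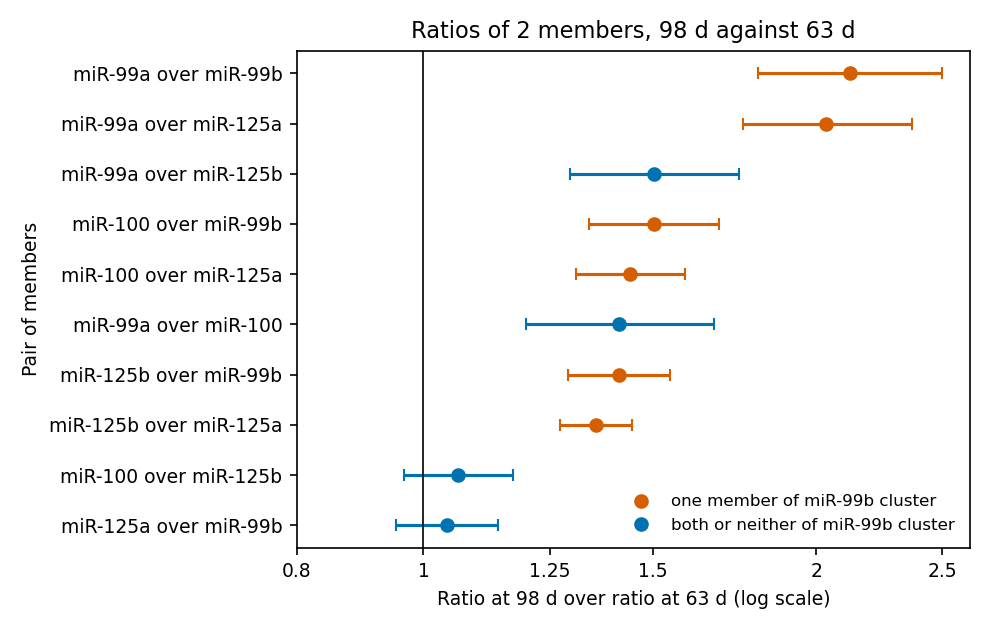
Ratio of 2 members at 98 d divided by the same ratio at 63 d (log scale) for the 10 pairs, with exact 95% intervals and a line at 1. Members are ordered as their folds between these ages, so each value is above 1 by construction. The 6 pairs with 1 member in the miR-99b cluster lie between 1.36 and 2.12, ssc-miR-125a over ssc-miR-99b, the pair of that cluster, lies at 1.04 and ssc-miR-100 over ssc-miR-125b at 1.06.

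The let-7 miRNAs of the 3 clusters, which act late in development to restrain growth, were set beside the members. From 63 to 98 d ssc-let-7c was at 1.01-fold (0.981 to 1.04), ssc-let-7e at 0.986-fold (0.931 to 1.05) and ssc-let-7a at 0.954-fold (0.945 to 0.964). Over its partner ssc-let-7c, ssc-miR-99a was 2.04-fold higher at 98 d than at 63 d (1.77 to 2.36). Over ssc-let-7a, ssc-miR-100 was 1.53-fold higher (1.40 to 1.66) and ssc-miR-125b 1.44-fold higher (1.37 to 1.504). Over ssc-let-7e, ssc-miR-99b was at 0.983-fold (0.892 to 1.08) and ssc-miR-125a at 1.02-fold (0.951 to 1.10). Both intervals of the miR-99b cluster hold 1. Between 98 and 161 d ssc-miR-99a over ssc-let-7c was at 0.910-fold (0.815 to 1.01), which holds 1, and ssc-miR-125a over ssc-let-7e at 1.14-fold (1.07 to 1.22), which does not. ssc-miR-99b over ssc-let-7e was at 1.07-fold (0.973 to 1.17), ssc-miR-100 over ssc-let-7a at 1.35-fold (1.26 to 1.44) and ssc-miR-125b over ssc-let-7a at 1.09-fold (1.04 to 1.13). Over the whole period from 63 to 161 d ssc-miR-125a over ssc-let-7e was at 1.17-fold (1.08 to 1.26) and ssc-miR-99b over ssc-let-7e at 1.05-fold (0.945 to 1.16). The values were larger for ssc-miR-100 over ssc-let-7a, 2.06-fold (1.89 to 2.245), and ssc-miR-99a over ssc-let-7c, 1.86-fold (1.60 to 2.17). For ssc-miR-125b over ssc-let-7a the value was 1.56-fold (1.48 to 1.64). ssc-let-7a was also listed at a hairpin outside the cluster, and its reads from both hairpins cannot be told apart, as for ssc-miR-125b.

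The miR-10 miRNAs, made in HOX gene clusters, are relatives of miR-99/100 in sequence with a seed that differs.
ssc-miR-10a-5p: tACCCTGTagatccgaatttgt
ssc-miR-10b: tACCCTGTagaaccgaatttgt

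ssc-miR-10b was at 26630, 44662 and 40837 RPM at 63, 98 and 161 d, and ssc-miR-10a-5p at 2699, 4640 and 4423. Both were higher at 98 d than at 63 d, by 1.68-fold (1.66 to 1.70) and 1.72-fold (1.66 to 1.78). These folds lay between those of ssc-miR-99a and ssc-miR-100. ssc-miR-10b thus exceeded the 5 members together in each library.

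Each of the 5 hairpins also gave reads from its 3′ arm, listed under names that are not porcine mature names, and the share of the 3′ arm was highest at the hairpin of ssc-miR-99a. Its 3′ arm was read as follows, with bases 2 to 8 in capitals.
ssc-mir-99a 3′ arm: cAAGCTCGcttctatgggtctgt

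This arm gave 163, 190 and 162 reads at 63, 98 and 161 d, or 111, 78.6 and 72.2 RPM. It made up 39.0% (34.3 to 43.9), 18.0% (15.7 to 20.4) and 21.6% (18.7 to 24.7) of the reads of both arms. While the 5′ arm, ssc-miR-99a, was 2.06-fold higher at 98 d than at 63 d, the 3′ arm was at 0.706-fold (0.570 to 0.876). The 5′ arm was thus higher and the 3′ arm lower at 98 d, also relative to the median of the porcine names, 1.22-fold. The ratio of the 5′ to the 3′ arm was 1.56, 4.56 and 3.64 at the 3 ages, 2.91-fold higher at 98 d than at 63 d (2.25 to 3.78). On reads without mapping errors this value was 3.04 (2.29 to 4.04). From 98 to 161 d the ratio was at 0.798-fold (0.627 to 1.02), on reads without mapping errors at 0.712-fold (0.546 to 0.930) and on copies of the representative reads at 0.496-fold (0.353 to 0.696). From 63 to 161 d it was 2.33-fold higher (1.77 to 3.05), and on copies 1.66-fold (1.14 to 2.43).

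For miR-125b the arms can be compared only over both hairpins together. Their 3′ arms gave 491, 847 and 804 reads at 63, 98 and 161 d, of which ssc-mir-125b-1 gave 38, 71 and 84, and made up 15.1% (13.9 to 16.4), 11.9% (11.2 to 12.7) and 15.4% (14.4 to 16.4) of the reads of both arms. The ratio of the 5′ to the 3′ arms was 1.31-fold higher at 98 d than at 63 d (1.16 to 1.48) and at 0.746-fold from 98 to 161 d (0.672 to 0.829).

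At the other 3 hairpins the 3′ arm was scarce. It made up 2.37, 3.14 and 1.84% of the reads at ssc-mir-100, 1.58, 1.17 and 1.64% at ssc-mir-99b and 0.290, 0.270 and 0.310% at ssc-mir-125a. With 9 to 61 reads in a library, their intervals were wide. From 63 to 98 d the interval of the change in the ratio of the arms held 1 at each of these 3 hairpins, for example 1.36 (0.666 to 2.75) at ssc-mir-99b. The ratio of the 5′ to the 3′ arm was, from 98 to 161 d, 1.73-fold higher at ssc-mir-100 (1.10 to 2.77).

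**Figure D5:**
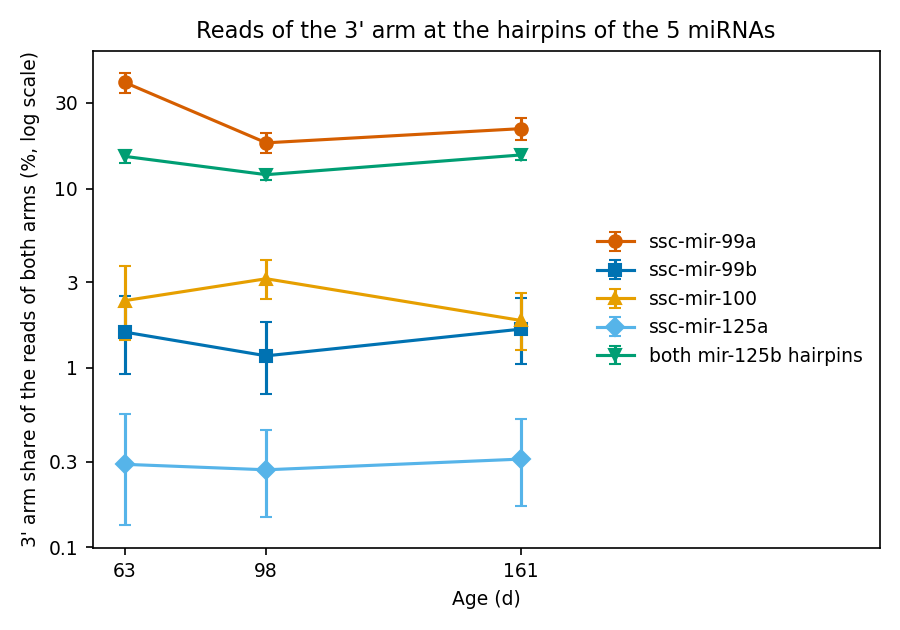
Share of the 3′ arm in the reads of both arms (%, log scale) against age in days, with exact 95% binomial intervals, for 4 single hairpins and for both miR-125b hairpins together. At ssc-mir-99a the share is 39.0% at 63 d and 18.0% at 98 d, over both miR-125b hairpins it is 11.9 to 15.4%, and at ssc-mir-100, ssc-mir-99b and ssc-mir-125a it stays between 0.270 and 3.14%.

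Isoforms and mapping errors also differed between the members. Reads with at least 1 mapping error made up 29.2, 29.5 and 31.6% of ssc-miR-125b and 7.56, 7.78 and 8.36% of ssc-miR-125a, against medians of 16.0, 15.5 and 16.1% over the porcine names with at least 100 reads. Of these 153, 170 and 161 names at 63, 98 and 161 d, 29, 35 and 27 were above ssc-miR-125b. Below ssc-miR-125a were 20, 24 and 29, so neither member was at an extreme. ssc-miR-99a was at 18.8, 19.1 and 27.1%, ssc-miR-99b at 18.8, 22.2 and 21.1% and ssc-miR-100 at 24.2, 28.2 and 26.2%. The read with the highest mapping score, which stands in the files for each name and is called here the representative read, made up 57.1, 56.6 and 54.0% of ssc-miR-125b but 30.4 to 45.8% of the other members.

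For ssc-miR-125a and ssc-miR-99b the 3′ end of the representative read differed between libraries, and the 5′ end and the seed did not.
ssc-miR-125a at 63 d: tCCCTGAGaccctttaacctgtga
ssc-miR-125a at 98 and 161 d: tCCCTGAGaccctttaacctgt
ssc-miR-99b at 63 and 98 d: cACCCGTAgaaccgaccttgcg
ssc-miR-99b at 161 d: cACCCGTAgaaccgaccttgc

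The representative of ssc-miR-125a was 24 nt long at 63 d, with 1152 copies, and 22 nt long at 98 and 161 d, with 2156 and 2059 copies. That of ssc-miR-99b was 22 nt long at 63 and 98 d, with 479 and 653 copies, and 21 nt long at 161 d, with 502. Copies of these 2 members thus count different reads in different libraries. The representatives of ssc-miR-99a, ssc-miR-100 and ssc-miR-125b were 22 nt long at every age.

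The porcine miRNAs nearest in pattern were sought among the 145 names with at least 100 reads in every library, by Euclidean distance of the log2 RPM centred on their mean over the 3 libraries. Nearest to ssc-miR-99a was ssc-miR-208b, a slow fibre miRNA encoded in a myosin gene, at 535, 1136 and 822 RPM (distance 0.032). Next was ssc-miR-30b-5p (0.050). The other slow fibre marker, ssc-miR-499-5p, was at 1034, 1685 and 995 RPM and was not among these nearest names. Nearest to ssc-miR-100 were ssc-miR-101 (0.015) and ssc-miR-132 (0.042), and nearest to ssc-miR-125b were ssc-miR-130a (0.041) and ssc-miR-30a-3p (0.061). ssc-miR-99b lay nearest to ssc-miR-30d (0.043) and to its cluster partner ssc-let-7e (0.066), and ssc-miR-125a to ssc-miR-199a-3p (0.066) and ssc-miR-107 (0.085). These distances use all reads, rest on 3 libraries and describe them only.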

How the data were processed

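Small RNA of porcine psoas major muscle was sequenced in 3 libraries, 1 per age, each from pooled RNA of 6 pigs. Per the labels the authors processed the reads with ACGT101-miR v4.2, and the study's methods name miRBase 20.0 hairpins; the aligner and the genome build are not given in the sources used here. The deposited values are estimated counts per arm of a hairpin, without normalisation, in which the authors' pipeline divided reads shared by several hairpins. The files of 98 and 161 d have a shifted header line, and 139 blank names at 63 d were filled from the row's own reference miRNA or, with none, the named row of the same read. None was a member.

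All hairpin rows of a name were summed and divided by the total of the file, per 1000000 reads (RPM). Levels carry exact Poisson intervals, shares exact Clopper-Pearson intervals, folds exact conditional intervals and ratios of ratios conditional odds ratios, on estimated counts rounded to whole numbers. PCR reads without molecular identifiers are not independent molecules, so intervals cover counting error only. With 1 library per age nothing was tested, and "called" means past 1.5-fold. The background was the porcine mature names with at least 10 reads in either library. Only the fold intervals were checked, on simulated Poisson counts, which hold no variation beyond counting error.

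The members and lists were chosen with earlier results of these data known. The names given are the members, their let-7 cluster partners, miR-10a and miR-10b, other names of miR-99, miR-100 or miR-125, marker lists and the 2 nearest patterns per member. Alternatives were edgeR TMM and DESeq2 factors, other denominators, a single hairpin row, reads without mapping errors, representative copies, a pseudocount of 1, a 2-fold limit and other filters. Sequences come from the deposited files. Software was Python 3.11.15, numpy 2.4.6, pandas 2.3.3, scipy 1.17.1, matplotlib 3.10.9, R 4.3.3, edgeR 4.0.16 and DESeq2 1.42.0, and the R packages gave scaling factors only.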

Additional observations from a re-analysis of the deposited data

Results flagged for a closer look

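A further 6 names of miR-99, miR-100 or miR-125 are neither members nor the 3′ arm names of the 5 hairpins placed on the pig genome. Those with more than 3 reads in a library are listed here because the comparisons between members leave them out. The exceptions are bta-miR-125b, added in 1 alternative, and the 3′ arm of mir-125b-2, used in the comparison of arms. The largest of the 6 names was cgr-miR-125b-3p, a hamster name, with 486, 836 and 773 reads at 63, 98 and 161 d. Of these, 453, 776 and 720 belonged to a miR-125b hairpin that was not placed on the pig genome, at 309, 321 and 321 RPM. They made up 92.3, 91.6 and 89.6% of the miR-125b 3′ arm reads of this hairpin and of ssc-mir-125b-1 together (intervals 89.5 to 94.5, 89.5 to 93.4 and 87.2 to 91.6). The 5′ arms of both hairpins are listed as ssc-miR-125b, and its reads from one and the other cannot be told apart.

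On the 5′ arm of that hairpin, bta-miR-125b, a bovine name whose read carries added bases at the 3′ end, had 69, 140 and 106 reads, none without a mapping error. The name oan-miR-125-3p had 7 reads at 98 d and 8 at 161 d, cfa-mir-99b-p3 had 12 and 6, and sha-mir-125b-p3 had 5 at 161 d. Their origin was not tested.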

How the results depend on the processing

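No paired analysis was possible because each age had 1 library. The 1.5-fold count from 63 to 98 d was 1 in every setting run. From 98 to 161 d it was 0, and 1 on reads without mapping errors or on representative copies. From 63 to 161 d it was 1, but 2 with TMM or DESeq2 scaling and 0 at a 2-fold limit, on the total of porcine names, without mapping errors or on representative copies, where the fold of ssc-miR-99a was 1.04.

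Both families took 0.957, 1.03 and 0.998% at 63, 98 and 161 d without ssc-miR-133a-3p in the total, 0.602, 0.720 and 0.613% of porcine names, 0.636% (98 d) and 0.535% (161 d) without mapping errors, and 0.450, 0.531 and 0.462% of copies. On copies, the 63 to 161 d ratios over ssc-miR-125a turned to 0.886 for ssc-miR-99a, 0.933 for ssc-miR-100 and 0.848 for ssc-miR-125b. Copies count a 24 nt read of ssc-miR-125a at 63 d and a 22 nt read later. Also on copies, the ratio of the 5′ to the 3′ arm of ssc-mir-99a was 0.496-fold from 98 to 161 d and 1.66-fold from 63 to 161 d. Including bta-miR-125b and the arm settings were chosen after seeing the data, and the grouping of member pairs by cluster was not planned.

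Of 135 alternative folds, 91 stayed within the counting interval, and no called fold turned. From 98 to 161 d, 16.7% of the porcine names past the limit were higher, against 43.5% with TMM and 50.0% with DESeq2 scaling, and members above 1 went from 0 to 3. From 63 to 98 d the higher share was 72.8%, against 58.5% with DESeq2. Over names of all species, 57.7, 51.8 and 60.5% passed the limit in either direction in the 3 pairs, against 46.9, 34.4 and 46.2% of porcine names. Depth limits the 3′ arms most, at 9 to 61 reads for ssc-mir-99b, ssc-mir-100 and ssc-mir-125a.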
